A study of Homo sapiens with 10 samples.

Results

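The serine synthesis and folate one-carbon enzymes described here were 8 genes out of 61533 in the count tables, PHGDH, PSAT1, PSPH, SHMT1, SHMT2, MTHFD1, MTHFD1L and MTHFD2. They were chosen as a named pathway with the difference between the 2 cell lines already known, so their values in that comparison are a description, with no test. All 8 passed the filter on low counts, which kept 16181 genes. RNA-seq libraries came from the human bladder cancer line T24 and from T24R2, a line derived from T24 by serial exposure to cisplatin and resistant to that drug. Each line had 5 libraries, all from day 3 of culture. The methods keep T24R2 in medium with cisplatin, whereas the labels list the same medium for both lines and name no drug, so effects of the line and of the drug cannot be told apart. Each is a single established line, and the sources do not say whether the replicates were separate cultures, so the p-values may measure technical spread alone.

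The first 3 enzymes make serine from the glycolytic intermediate 3-phosphoglycerate. The hydroxymethyltransferases SHMT1 (cytosol) and SHMT2 (mitochondria) then pass a carbon from serine to tetrahydrofolate and release glycine, and the MTHFD enzymes oxidize and reduce this folate-bound carbon until it serves purine, thymidylate and methionine synthesis or leaves the mitochondrion as formate. Tumour cells often raise these enzymes, and ATF4, the transcription factor of the amino acid stress response, is known to induce most of them.

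The promoters are shown because PSAT1 differed most between the lines and 6 of the 8 genes, all but PSPH and SHMT2, had an entry in the RefSeq promoter table (GRCh38.p14). The 250 bases before the start site were searched on both strands for letter patterns. Capitals mark CCAAT, the CCAAT box bound by the NF-Y factor, or its reverse complement. The PSAT1 window (chr9:78296875-78297124, plus strand) held no annotated exon and 3 CCAAT boxes, which began at -113, -83 and -52 from the start site.

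PSAT1: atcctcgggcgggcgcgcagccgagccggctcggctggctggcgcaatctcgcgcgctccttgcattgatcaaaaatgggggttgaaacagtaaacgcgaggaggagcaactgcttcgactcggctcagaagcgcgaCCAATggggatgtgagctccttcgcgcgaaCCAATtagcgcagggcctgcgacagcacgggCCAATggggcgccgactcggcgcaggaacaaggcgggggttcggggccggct

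The windows of the other 5 genes overlap annotated exons in at least 1 entry, so only the box and its flanks are given, each from RefSeq on the strand of the gene. They lie at chr1:119711853-119711877 (PHGDH, plus), chr2:74198421-74198445 and chr2:74198531-74198555 (MTHFD2, plus), chr6:150866283-150866307 (MTHFD1L, plus), chr14:64388127-64388151 (MTHFD1, plus), and chr17:18363612-18363636 and chr17:18363561-18363585 (SHMT1, minus).

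PHGDH: gtatttccgtCCAATcaaaaggaga
MTHFD2, distal: tcttctggctCCAATcaaaagcagg
MTHFD2, proximal: gcggcagggaCCAATgggtggcgga
MTHFD1L: gtgggcatctCCAATgggcgcctag
MTHFD1: tttctttccgCCAATcatttccgcc
SHMT1, distal: tgcgccgcagCCAATagcgcgggtg
SHMT1, proximal: gcgctctctgATTGGgcgcctccgg

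The 6 genes have 9 windows in the table, 4 of them for MTHFD1L. The letters CCAAT were in 8 of the 9, which include at least 1 window of each gene. They were in 32.01% of the 35116 promoter windows of the table, and 9.53% of all windows hold 2 or more. The MTHFD1L windows with these letters overlap and hold the same site, which thus counts more than once. The pattern of the C/EBP-ATF response element, TGATGNAAN, which ATF4 dimers bind, was found in 2 of the 9 windows, which overlap and both belong to MTHFD1L (chr6:150866347-150866375, plus strand, pattern in capitals), and in 3.13% of all windows.

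MTHFD1L: ccgccggctcTGATGCAATcgcgccgggc

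The GC box GGGCGG was present in 5 of the 9 windows, from 3 genes, and in 42.6% of all windows. The E-box CACGTG was present in 3 of the 9, from 2 genes, and in 6.34% of all windows. For both patterns, overlapping MTHFD1L windows count as separate windows. The antioxidant response element core TGACNNNGC was present in 0 of the 9 and in 10.9% of all windows. These matches are letters in a window, and binding was not measured.

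Counts are given as CPM, that is, counts scaled to library size with the TMM method. Total counts were 9257843 to 10840954 per library, and PSPH, the member with the fewest reads, had at least 121 counts in every T24 library. Of the 18 urothelial and epithelial markers examined, 7 averaged at least 10 CPM in T24 and 5 in T24R2. The keratins KRT7 and KRT8 had the highest CPM, and KRT5, KRT20, CDH1 and UPK1B were at or near 0 in both lines. The summed level of the 18 markers was 5010 to 5745 CPM in T24 and 3028 to 3232 CPM in T24R2, and KRT19 was at least 964-fold lower in T24R2, taking 3 counts per library as the floor. The sum of 4 endothelial markers was 225 to 278 CPM in T24 and 1.604 to 2.50 in T24R2, and in T24 nearly all of it came from CDH5. Sums of 7 fibroblast markers (8.86 to 11.2 CPM in T24, 0.954 to 2.29 in T24R2) and of 5 leukocyte markers (1.14 to 2.10 and 0.295 to 2.88) were low in both. The part of these differences in the results below was not tested. In bulk RNA, fewer cells with a transcript and less of it per cell cannot be told apart.

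Of the 8 enzymes, the 3 of serine synthesis were called higher in T24R2 and 0 were called lower, where called means an adjusted p under 0.05 in edgeR's quasi-likelihood test and a log2 fold change beyond 0.5 in size. Over all genes tested, 24.9% were called higher and 26.5% lower by this rule. The members were selected with this contrast known, so nothing is read from their share. The 5 folate enzymes had log2 fold changes from -0.10 to 0.39.

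PSAT1 (ENSG00000135069.14, chromosome 9 of hg38, 78297125 to 78330093, plus strand) encodes phosphoserine aminotransferase, the second step of serine synthesis. It had 92.9, 100.3, 91.2, 87.1 and 97.4 CPM in T24 replicates 1 to 5, and 362.6, 370.4, 386.8, 376.8 and 379.1 CPM in T24R2. Every T24R2 library was far above every T24 library. Averages were 93.8 ± 5.17 and 375 ± 9.12 CPM (SD, n = 5), a ratio of 4.0, and the log2 fold change was 2.0 (SE 0.05).

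PHGDH (ENSG00000092621.13, chromosome 1, 119648411 to 119744218, plus strand) encodes phosphoglycerate dehydrogenase, which commits 3-phosphoglycerate to serine. Its level was 164.1, 148.8, 141.3, 152.8 and 143.9 CPM in the T24 libraries and 388.4, 359.1, 353.4, 354.1 and 358.0 CPM in the T24R2 libraries. The lines did not overlap, and T24R2 replicate 1 stood above the other 4 of its line. Means were 150.2 ± 8.95 and 363 ± 14.6 CPM (SD, n = 5), with a ratio of 2.41 and a log2 fold change of 1.27 (SE 0.05).

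PSPH (ENSG00000146733.14, chromosome 7, 56011051 to 56051604, minus strand) encodes phosphoserine phosphatase, which releases free serine in the last step. It was measured at 15.6, 13.3, 13.8, 13.6 and 13.9 CPM in T24, against 36.6, 39.4, 41.0, 35.7 and 36.3 CPM in T24R2. It had the fewest counts of the 8 in both lines, and again the lines did not overlap. Means were 14.03 ± 0.90 and 37.8 ± 2.28 CPM (SD, n = 5), a ratio of 2.695 and a log2 fold change of 1.43 (SE 0.09).

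**Figure D1:**
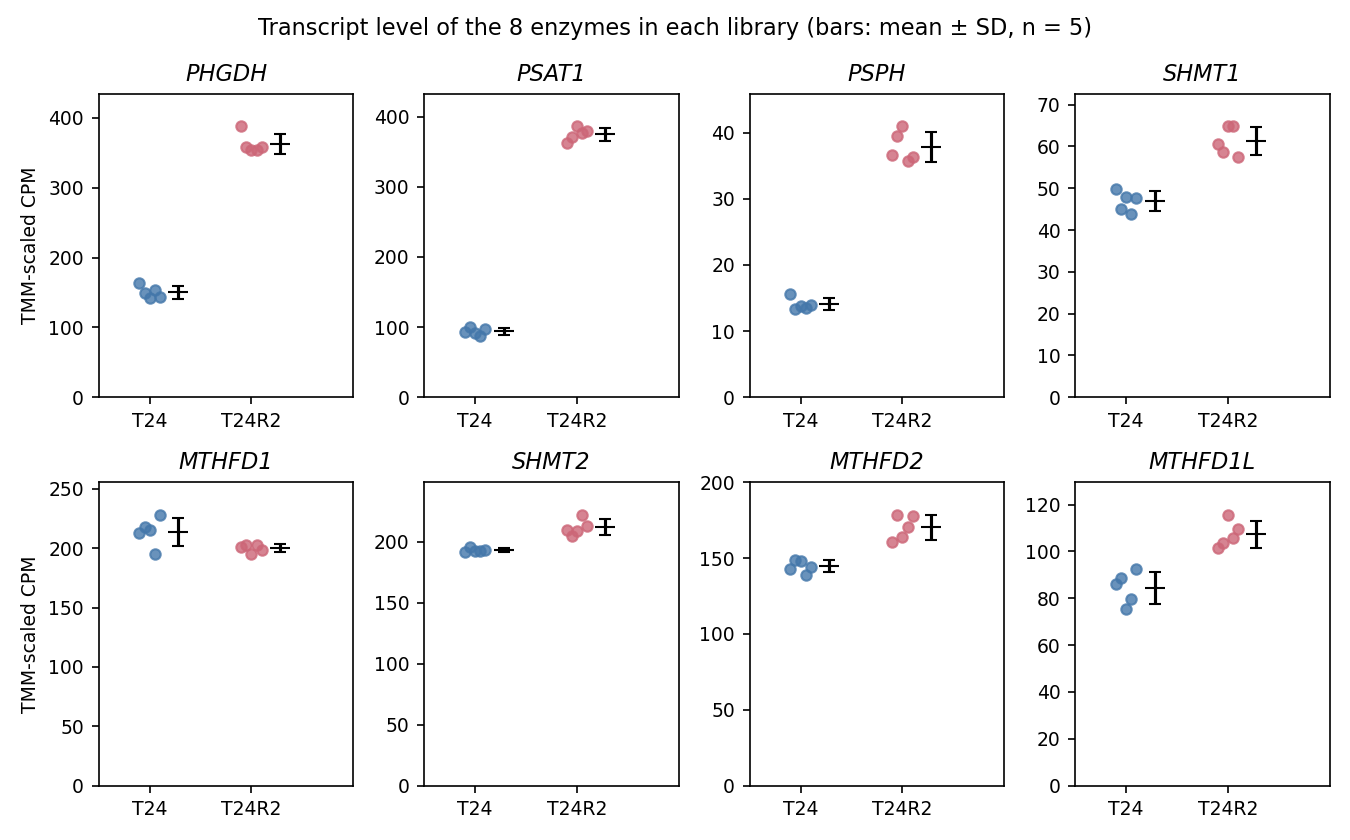
TMM-scaled CPM (vertical axes, from 0, a scale for each gene) of the 8 enzymes in the 5 T24 (blue) and 5 T24R2 (red) libraries, with the mean ± SD beside the points. PSAT1 lies at 87.1 to 100.3 CPM in T24 and 362.6 to 386.8 in T24R2, whereas the MTHFD1 points of the lines overlap.

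SHMT1 (ENSG00000176974.21, chromosome 17, 18327860 to 18363563, minus strand), the cytosolic hydroxymethyltransferase, was the folate enzyme nearest to the fold minimum, with a log2 fold change of 0.39 (SE 0.06). The nearest member past that minimum was PHGDH. SHMT1 was at 49.9, 45.1, 48.0, 43.8 and 47.7 CPM in T24 and at 60.6, 58.8, 64.9, 64.8 and 57.4 CPM in T24R2. All 5 T24R2 libraries were above all 5 T24 libraries, by a small margin next to that of PSAT1. The ratio of the means was 1.31. SMCR8, on the opposite strand, shares 2.81% of its exon bases.

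MTHFD1L (ENSG00000120254.16, chromosome 6, 150865679 to 151101887, plus strand), which releases formate in mitochondria, had 85.9, 88.5, 75.3, 79.7 and 92.7 CPM in T24. In T24R2 it had 101.3, 103.8, 115.7, 105.6 and 109.7 CPM, with a log2 fold change of 0.34 (SE 0.06). The highest T24 library and the lowest T24R2 library were close to each other but did not overlap.

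MTHFD2 (ENSG00000065911.13, chromosome 2, 74186172 to 74217565, plus strand), the mitochondrial dehydrogenase and cyclohydrolase of many tumour cells, was at 142.8, 148.8, 148.0, 139.1 and 144.1 CPM in T24. It was at 160.8, 178.7, 163.5, 170.3 and 177.5 CPM in T24R2, and the log2 fold change was 0.24 (SE 0.05). Genes on the opposite strand share 14.1% of its exon bases (SLC4A5 and the unnamed gene ENSG00000264324). With the whole counts of these genes taken off, reads outside the shared bases included, the log2 ratio was 0.11.

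SHMT2 (ENSG00000182199.11, chromosome 12, 57229573 to 57234935, plus strand), the mitochondrial hydroxymethyltransferase, spanned 191.6 to 195.6 CPM in T24, with a median of 192.5. In T24R2 it spanned 204.9 to 222.4 CPM, with a median of 209.8. The lines were apart, but the log2 fold change was only 0.13 (SE 0.04). Genes on the opposite strand (NDUFA4L2 and the unnamed ENSG00000276727) share 8.38% of its exon bases, and with their whole counts taken off the log2 ratio was 0.16.

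MTHFD1 (ENSG00000100714.17, chromosome 14, 64388031 to 64463457, plus strand), the cytosolic enzyme that carries all 3 folate interconversions, was the one member whose libraries overlapped between the lines. It was at 212.7, 217.8, 215.0, 195.1 and 228.3 CPM in T24 and at 201.1, 202.4, 194.7, 203.0 and 198.3 CPM in T24R2. The log2 fold change was -0.10 (SE 0.05). Its sign is not settled, since it was 0.067 without scaling beyond library size. The log2 ratio was 0.041 with the whole counts of opposite-strand genes taken off, reads outside the shared bases included, so this may overcorrect. Those genes (ZBTB25 and 2 unnamed ones) share 15.7% of its exon bases.

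**Figure D2:**
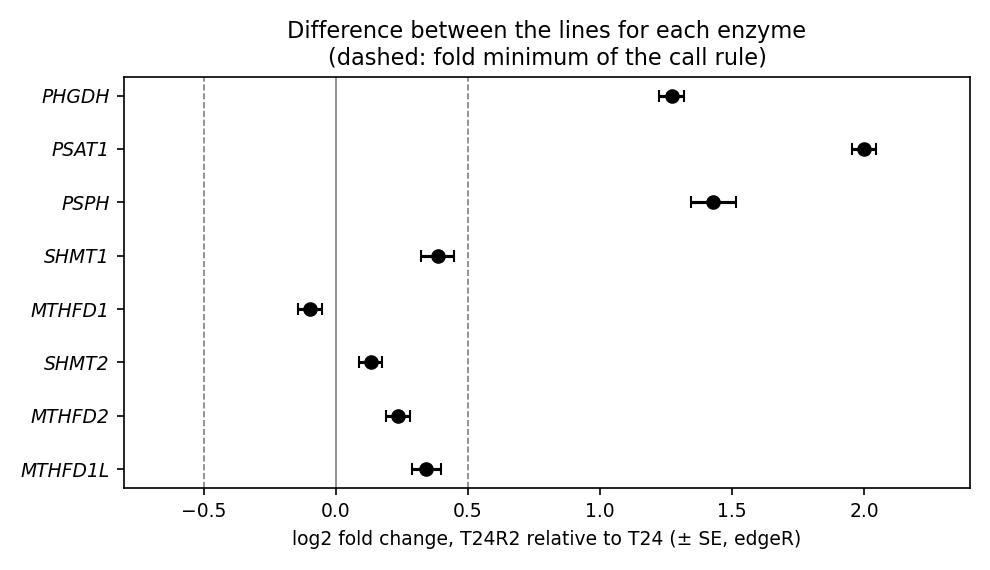
Log2 fold change of T24R2 relative to T24 for each enzyme (points, horizontal axis) with its standard error (bars); dashed lines mark the fold minimum of 0.5. PHGDH, PSAT1 and PSPH lie between 1.27 and 2.0, and the 5 folate enzymes lie between -0.10 and 0.39.

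With no fold minimum, 7 of the 8 enzymes had an adjusted p under 0.05 in the higher direction and 0 in the lower, where 37.9% and 37.6% of all genes did. With a minimum of 1 on the log2 scale, 3 were higher and 0 lower, where 11.9% and 14.2% of all genes were. Every T24R2 library lay above every T24 library for 7 of the 8 and below for 0, which was so for 29.9% and 31.3% of all genes tested. These counts come from the contrast the genes were chosen on. The median log2 fold change of the 8 was 0.36, beside 0.01 over all genes tested. Without scaling beyond library size the median of all genes was 0.18, and SHMT1 (0.55) and MTHFD1L (0.51) then passed the fold minimum too. None of the 14 annotated pseudogenes of the members had more than 6 counts in any library, and adding their counts moved the log2 ratio most for SHMT1, from 0.386 to 0.383.

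Levels of different genes were compared as CPM per kilobase of annotated exons. On this scale PSAT1 (42.5 ± 2.35, SD, n = 5) and SHMT2 (42.1 ± 0.33) were the most abundant in T24 and overlapped each other. MTHFD1 (17.5 ± 0.99), MTHFD1L (17.3 ± 1.42) and PHGDH (16.3 ± 0.97) followed, each overlapping the next. MTHFD2 (12.6 ± 0.35), SHMT1 (6.69 ± 0.35) and PSPH (5.08 ± 0.33) came last and were each separate from the gene before.

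In T24R2, PSAT1 stood alone at 170.1 ± 4.13 CPM per kilobase (SD, n = 5), ahead of SHMT2 at 46.1 ± 1.42. PHGDH reached 39.5 ± 1.59 and stood behind only those 2 genes, whereas 4 genes were ahead of it in T24. MTHFD1L (21.9 ± 1.16), MTHFD1 (16.4 ± 0.28), MTHFD2 (14.9 ± 0.70), PSPH (13.7 ± 0.83) and SHMT1 (8.74 ± 0.49) came after it. Of these neighbours in the order, MTHFD2 and PSPH overlapped, and every other pair was separate in all libraries.

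PHGDH, PSAT1 and PSPH together made up 39.9% ± 0.50 of the summed per-kilobase level of the 8 enzymes in T24 and 67.4% ± 0.39 in T24R2 (SD, n = 5). Their summed level was 63.9 ± 2.41 CPM per kilobase in T24 and 223 ± 3.37 in T24R2. The mitochondrial enzymes SHMT2, MTHFD2 and MTHFD1L summed to 72.0 ± 1.69 and 82.9 ± 1.89 CPM per kilobase. The cytosolic SHMT1 and MTHFD1 summed to 24.2 ± 1.20 and 25.1 ± 0.51.

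The order within a line depended on the length used, because annotated exons of PHGDH (9187 bases), MTHFD1 (12208) and MTHFD2 (11443) far exceed their canonical transcripts (1866, 3154 and 4403 bases). Per kilobase of canonical transcript, PHGDH was the most abundant member in T24R2 (194 ± 7.84) and PSAT1 the next (170.1 ± 4.13). The share of the serine enzymes was 35.8% in T24 and 60.0% in T24R2 on that scale, and 33.1% and 57.9% per kilobase of coding sequence. The share was higher in T24R2 with each of the 3 lengths. A gene has the same length in both lines, so this direction follows from the fold changes above and adds no support.

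**Figure D3:**
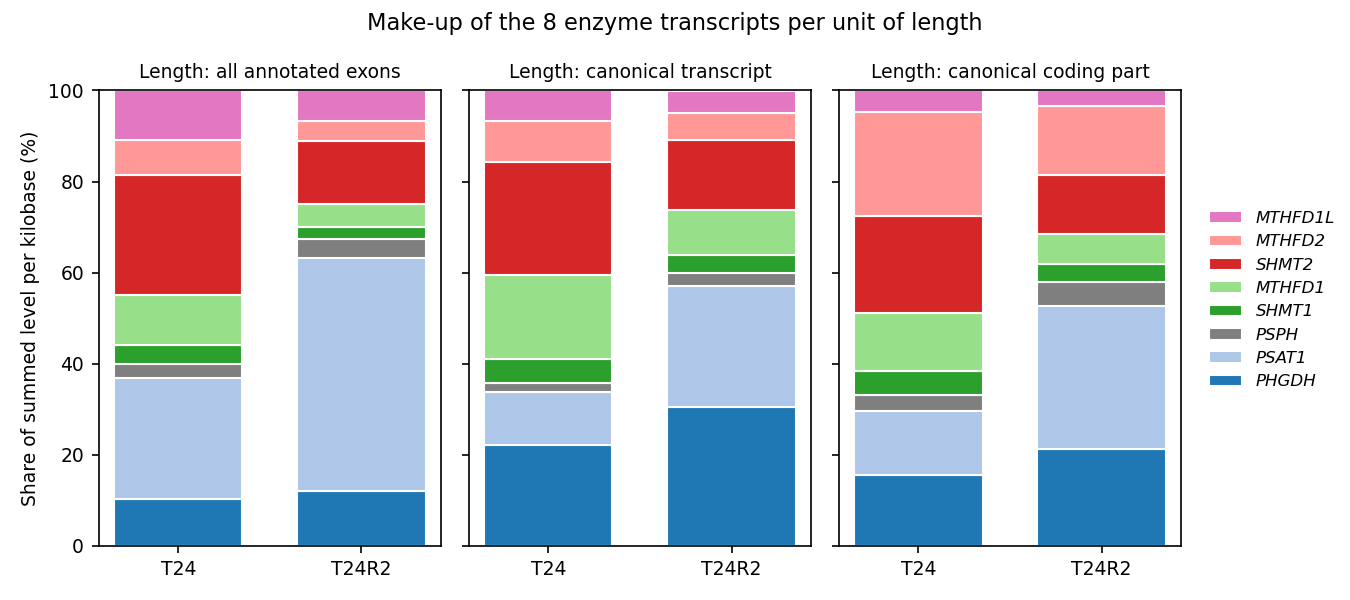
Stacked bars, from 0 to 100%, of each enzyme's share of the summed level per kilobase in T24 and T24R2 (mean of 5 libraries), with 3 choices of gene length. The serine enzymes at the base of each bar make up 39.9% in T24 and 67.4% in T24R2 with the length of all annotated exons, and 33.1% and 57.9% with the coding length.

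Among replicates of a line the members varied little, and 18 of the 28 correlations between pairs were positive. Whether they vary together more than other genes was not tested. Pearson's r of the deviations of log2 CPM from the line mean ran from -0.60 (PSPH and SHMT2) to 0.79 (PSAT1 and MTHFD1L) over the 28 pairs, with a median of 0.13 over 10 libraries that the genes share. The 3 other genes with the profile nearest to that of PSAT1 over the 10 libraries, of 6524 compared, were JADE2, ACAT2 and HIPK2. Their root mean square distances were 0.078, 0.080 and 0.084 on the log2 scale.

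The members lie on 8 different chromosomes. The 10 nearest tested genes of a member spanned from 0.43 megabases (SHMT2) to 8.92 megabases (PSPH). Over all genes tested, 24.9% were called higher and 26.5% lower. The 5 tested genes on each side of PSAT1 had a median log2 fold change of -0.31, with 1 called higher and 3 lower. Those around PSPH had a median of -0.60, with 0 called higher and 7 lower. PSAT1 and PSPH thus lay above all 10 of their neighbours. Around PHGDH the median was 0.36, and 4 of 10 were called higher.

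For the folate enzymes, the neighbours of MTHFD1L had a median of 1.35, above the value of the gene itself, and 7 of 10 were called higher. Those of MTHFD2 had a median of 0.49, with 5 called higher. Medians around SHMT1 (-0.02), MTHFD1 (0.06) and SHMT2 (-0.22) were nearer to 0. The neighbours of SHMT1, SHMT2, MTHFD1 and MTHFD2 include the opposite-strand genes that share exon bases with them, and such genes may share reads. Copy number was not measured here.

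**Figure D4:**
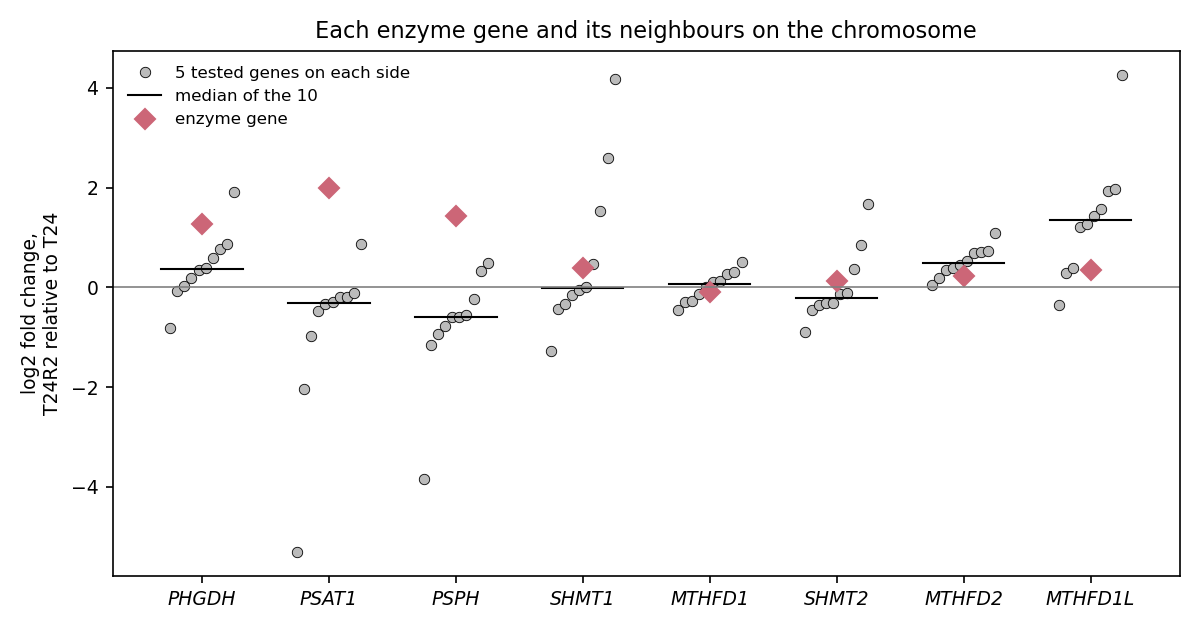
Log2 fold change of T24R2 relative to T24 (vertical axis) for each enzyme gene (red diamonds) and its 10 nearest tested neighbours on the chromosome (grey points, with their median as a line). PSAT1 and PSPH lie above all of their neighbours, whereas MTHFD1L at 0.34 lies below its neighbours' median of 1.35.

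Genes around the enzymes in the pathway were then tested, by lists of related function that were drawn up with earlier results of these data known. The counts of calls in every list stand beside shares of 24.9% called higher and 26.5% called lower over all genes tested. Of 21 genes that carry or use serine and glycine, 16 were tested, of which 5 were called higher and 5 lower, with a median log2 fold change of 0.01. SPTLC2, a subunit of the enzyme that joins serine to a fatty acid in sphingolipid synthesis, fell from 116 ± 4.95 to 51.9 ± 2.73 CPM (log2 fold change -1.16, SE 0.05, adjusted p = 9.8e-22 in edgeR). SFXN3, a mitochondrial serine carrier, fell from 110.3 ± 3.64 to 49.4 ± 3.78 CPM (-1.16, adjusted p = 4.3e-21 in edgeR). Its relative SFXN1, the main such carrier, had a log2 fold change of -0.48 and did not pass the fold minimum, which it passed without T24 replicate 1, T24 replicate 4 or T24R2 replicate 4 (-0.512 to -0.503).

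Other genes of the list went both ways. SLC6A9, a glycine transporter, fell from 4.73 ± 0.43 to 2.79 ± 0.75 CPM (log2 fold change -0.75, adjusted p = 0.0016 in edgeR). DLD, a subunit shared by the glycine cleavage system and other mitochondrial complexes, rose from 90.9 ± 5.13 to 158 ± 5.92 CPM (log2 fold change 0.79, adjusted p = 1.6e-17 in edgeR). SLC1A4, a neutral amino acid transporter that takes up serine, rose from 23.7 ± 1.58 to 45.4 ± 3.26 CPM (0.93, adjusted p = 3.8e-14 in edgeR). The largest value of the list was that of SDSL, a serine dehydratase-like gene, which went from 1.52 ± 0.55 to 9.19 ± 1.28 CPM (2.58, adjusted p = 4.9e-14 in edgeR). GLDC and AMT, core parts of glycine cleavage, averaged under 1 CPM in both lines and were not tested. Genes on its own strand share 62.6% of the exon bases of AMT, and the effect of this on its low count was not tested.

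Of 13 other folate cycle enzymes, 10 were tested, of which 4 were called higher and 3 lower (median 0.40). GGH and FPGS, which remove and add the glutamate tail that keeps folate in the cell, both fell. GGH went from 80.1 ± 3.76 to 37.5 ± 2.93 CPM (log2 fold change -1.09, adjusted p = 7.9e-19 in edgeR), and FPGS from 108 ± 6.17 to 67.3 ± 4.69 CPM (-0.68, adjusted p = 4.3e-14 in edgeR).

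TYMS, thymidylate synthase, rose from 123 ± 12.2 to 194 ± 12.1 CPM (log2 fold change 0.66, adjusted p = 1.3e-13 in edgeR), although genes on the opposite strand share 47.5% of its exon bases. MTHFD2L, the paralog of MTHFD2, rose from 9.06 ± 0.88 to 18.5 ± 1.55 CPM (1.02, adjusted p = 1.4e-10 in edgeR). MTHFS also rose (1.99, adjusted p = 2.0e-07 in edgeR), but at under 4 CPM in both lines, and genes on its own strand share 43.4% of its exon bases.

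Of 6 folate carriers, 3 were tested, with 0 called higher and 1 lower. SLC19A1, the reduced folate carrier, fell from 198 ± 8.93 to 125 ± 2.57 CPM (log2 fold change -0.66, adjusted p = 2.9e-16 in edgeR). A gene on the opposite strand, with 4122 counts on average beside 1602, shares 13.9% of the exon bases of SLC19A1. SLC19A1 was just short of the fold minimum without scaling beyond library size (-0.499). The folate receptors FOLR1, FOLR2 and FOLR3 were near 0 in both lines.

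The methionine cycle and transsulfuration, where homocysteine is remethylated with folate-bound carbon or joined to serine on the way to cysteine, had 16 genes, 12 of them tested. Of these, 7 were called higher and 2 lower (median 0.64). CTH, cystathionine gamma-lyase, rose from 6.81 ± 1.75 to 24.6 ± 1.93 CPM (log2 fold change 1.85, adjusted p = 1.2e-16 in edgeR), and CBS, which joins serine and homocysteine, from 5.94 ± 1.01 to 14.8 ± 1.60 CPM (1.31, adjusted p = 3.5e-11 in edgeR). MAT2A, which makes S-adenosylmethionine, rose from 243 ± 6.74 to 409 ± 5.83 CPM (0.75, adjusted p = 2.0e-19 in edgeR). A gene on the opposite strand shares 12.5% of the exon bases of MAT2A.

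Methionine synthase MTR and its reductase MTRR were also called higher, at 0.59 and 0.69. APIP and MTAP, which salvage methionine from methylthioadenosine, fell by 1.11 and 0.74 on the log2 scale (adjusted p = 1.2e-14 and 9.5e-14 in edgeR). ADI1, the dioxygenase of the same salvage route, rose from 19.6 ± 2.22 to 39.02 ± 4.15 CPM (adjusted p = 4.7e-13 in edgeR).

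Of the 8 genes of purine synthesis, which takes carbons from formyl-tetrahydrofolate, 1 was called higher and 1 lower (median 0.18). PPAT, the committing amidotransferase, rose from 36.1 ± 1.94 to 55.3 ± 3.88 CPM (log2 fold change 0.61, adjusted p = 1.3e-10 in edgeR), and PRPS2, a phosphoribosyl pyrophosphate synthetase, fell from 78.7 ± 4.05 to 37.1 ± 4.24 CPM (-1.08, adjusted p = 1.2e-17 in edgeR). GART, which uses formyl-tetrahydrofolate, had a log2 fold change of 0.44 and was not called, other than under another scaling (0.60 without scaling, 0.51 with the upper quartile).

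Of ATF4 and 17 other genes it is known to control, 16 were tested, of which 8 were called higher and 2 lower (median 0.34). The other 6 were not called, and apart from ATF4 their log2 fold changes were -0.14 to 0.03. ATF4 itself was at 533 ± 27.8 CPM in T24 and 397 ± 20.3 in T24R2, lower in all 5 T24R2 libraries than in any T24 library, and its log2 fold change of -0.43 (adjusted p = 3.5e-11 in edgeR) did not reach the fold minimum. STC2, a secreted stress-response glycoprotein, rose from 232 ± 13.1 to 508 ± 22.9 CPM (1.13, adjusted p = 5.8e-24 in edgeR), and PCK2, mitochondrial phosphoenolpyruvate carboxykinase, from 41.1 ± 2.67 to 81.0 ± 2.61 CPM (0.98, adjusted p = 6.0e-18 in edgeR).

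SESN2 (1.72) and ASNS (1.37), the asparagine synthetase, were called higher too, although a gene on its own strand shares 49.3% of the exon bases of ASNS. The proline synthesis enzymes ALDH18A1 and PYCR1, also on this list, fell. ALDH18A1 went from 188 ± 9.54 to 46.5 ± 1.76 CPM (-2.01, adjusted p = 2.0e-30 in edgeR) and PYCR1 from 163 ± 8.25 to 90.4 ± 5.45 CPM (-0.85, adjusted p = 3.1e-18 in edgeR). Genes on the opposite and on the same strand share 15.6% and 14.1% of the exon bases of PYCR1. For each called gene given with an adjusted p above, no T24R2 library fell within the range of T24, and the exact two-sided permutation p of log2(CPM + 1) was 0.00794, the smallest for 5 against 5. Most of these genes were picked for a small adjusted p on the same libraries, so this adds no independent support.

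**Figure D5:**
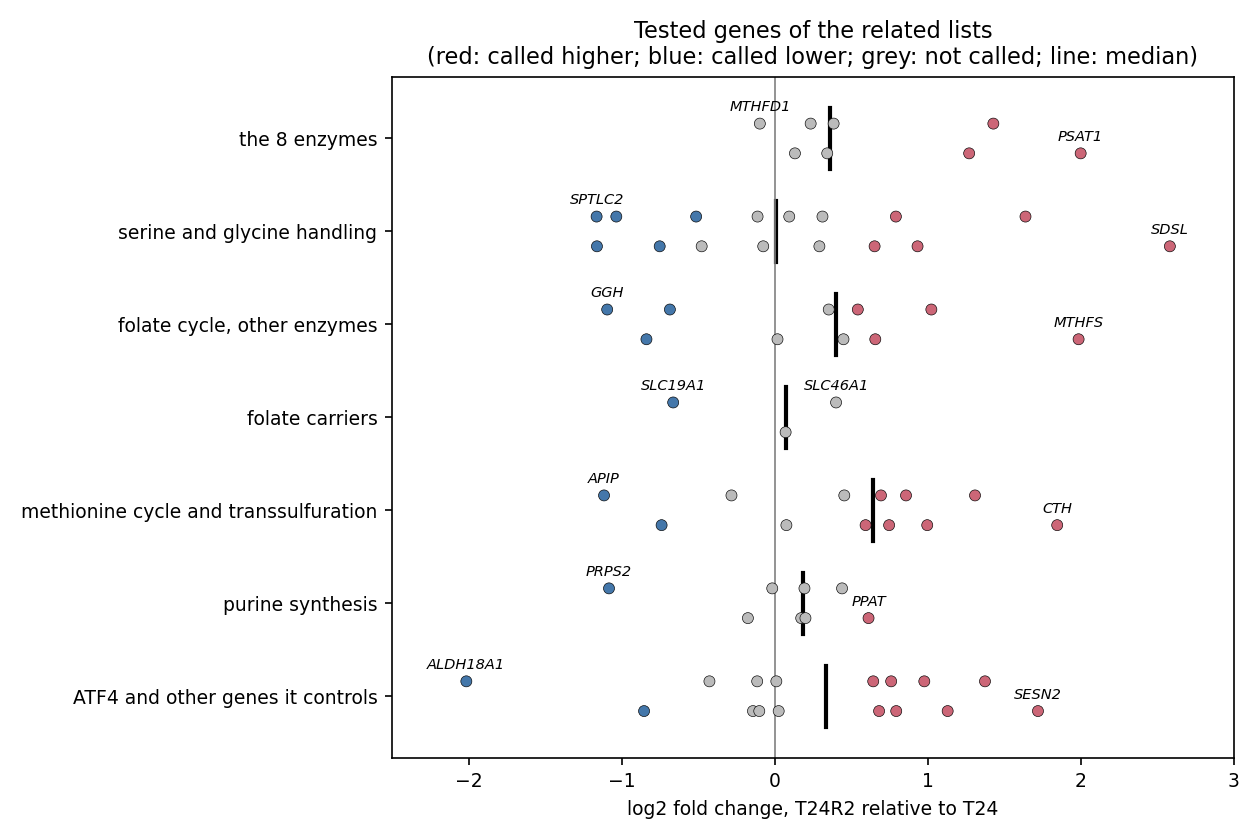
Log2 fold change of T24R2 relative to T24 (horizontal axis) of every tested gene in the 8 enzymes and the 6 related lists, coloured by call, with the median of each list as a black line. The medians run from 0.01 for serine and glycine handling to 0.64 for the methionine cycle and transsulfuration, and the median of all genes tested was 0.01.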

How the data were processed

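RNA-seq of 5 T24 and 5 T24R2 libraries was used. The authors aligned reads to hg38 with STAR 2.7.0, kept unique, deduplicated reads with samtools 1.10 and counted fragments on GENCODE 39 genes with featureCounts 2.0.1. The deposited values are raw counts per gene, which were not normalized. Fragments were counted with strand option 1, while the kit is not described as strand-specific, so genes overlapping on opposite strands may share reads. Symbols matched 61415 of 61533 genes. Replicates were separate libraries (chi-square per degree of freedom 2.01 to 7.04 over 20 pairs). The lines were compared by edgeR 4.0.16 in R 4.3.3 (filterByExpr, TMM, glmQLFTest, Benjamini-Hochberg), with DESeq2 1.42.0 and limma 3.58.1 as alternatives. All were checked on simulated counts, DESeq2 without shrinkage, with 200 of 16181 genes changed, equally in both directions. Scaling with as many changed genes as were called here was not simulated. DESeq2 with shrunken fold changes was the study's own method. Overlaps used bedtools 2.31.1, canonical lengths GENCODE 44, and other steps Python 3.11.15 with SciPy 1.17.1. The floor of 3 counts covers counting error only, whereas the SD and SE include the spread between libraries. In edgeR, the SE was derived as the size of the log2 fold change over the square root of the F statistic.

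The members, lists and alternatives were chosen with earlier results of these data known. Named genes are the members, up to 4 called genes per list with the smallest adjusted p and at least 1 CPM in a line, genes overlapping members, and the 3 profiles nearest to PSAT1 among genes of at least 32 CPM. MTHFD2L, MTHFS, SDSL, SLC6A9, ADI1, SFXN1, GLDC, AMT, CBS, MTR, MTRR, GART, SESN2, ASNS, ATF4, the folate receptors and the named markers were added after their values were seen. A gene that this rule selects is not reported here.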

Additional observations from a re-analysis of the deposited data

Results flagged for a closer look

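PHGDH in T24R2 replicate 1, at 388 CPM, lay far from the other 4 libraries of that line, which spanned 353 to 359 CPM (a gap of 0.84 of the range of the group, by Dixon's test of the extreme value). It was the 1 such value in 16 groups examined, the 8 enzymes in both lines. Chance gives about 1 in 20, or 0.8 in 16 groups. Without that library the log2 fold change of PHGDH was 1.25, beside 1.27 with all libraries.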

How the results depend on the processing

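The 3 calls of the serine enzymes held under every alternative run. Without scaling beyond library size, 5 members were called higher, SHMT1 (0.55) and MTHFD1L (0.51) among them. MTHFD1 turned to 0.067, folate carriers had 1 called higher and 0 lower, and purine synthesis had 2 higher. Of all 16181 genes tested, 5206 were then called higher and 3431 lower, beside 4027 and 4282 with TMM. Upper-quartile scaling also gave 2 higher in purine synthesis, with 4531 of all genes higher and 3883 lower. With the whole counts of opposite-strand genes taken off, which may overcorrect, MTHFD1 turned to 0.041 and MTHFD2 was at 0.11. With no fold minimum, 7 members were called higher, with the log2 fold changes of SHMT1 (0.39), MTHFD1L (0.34), MTHFD2 (0.24) and SHMT2 (0.13) as before. So was 1 folate carrier, and purine synthesis had 4 higher and 2 lower, where 37.9% and 37.6% of all genes were. With a minimum of 1, higher and lower calls were 2 and 3 for serine and glycine handling and 2 and 1 for the folate cycle. They were 2 and 1 for the methionine cycle and 3 and 1 for the ATF4 list. Under that rule 0 folate carriers were lower and 0 purine genes higher, where 11.9% of all genes were higher and 14.2% lower. A mean of at least 100 counts left 3 higher and 3 lower in serine and glycine handling, with fewer genes tested. Of the 10686 genes tested under that filter, 2350 were called higher and 2641 lower. Without genes sharing over 10% of exon bases, added after seeing the data, 3 were higher in serine and glycine handling, 2 in the folate cycle and 5 in the ATF4 list, with 1 lower there, and 0 folate carriers lower. The share of the serine enzymes was 35.8% and 60.0% with canonical transcript length and 33.1% and 57.9% with coding length, both added later. The protein-length alternative was not run, since no protein table was used here.

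Leaving out each library in turn gave log2 fold changes of 1.97 to 2.02 for PSAT1, 1.25 to 1.30 for PHGDH, 1.40 to 1.46 for PSPH and -0.13 to -0.08 for MTHFD1, and changed no member's call. Of 31 other named genes under the alternatives that gave a value, 0 of 647 values reversed, 15 fell short of the call and 8 newly passed it. Raising the fold minimum to 1 gave 14 of those 15, and dropping the minimum gave 3 of the 8. Those 2 rules reuse the same fold changes, which could not reverse. The replicate block gave 2.0 for PSAT1, 1.27 for PHGDH, 1.43 for PSPH and 3 members called higher, and changed no count of calls of the members or lists. Same-numbered libraries shared only a number, as their deviations correlated at -0.02 to 0.02, over 0.1 in 0 of 5 pairs, and 1 of 5 was best with its own number. PSPH, with the fewest counts, had the largest standard error of the members (0.09).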
